A study of Homo sapiens with 3 samples.

Results

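The genes described here encode the mitochondrial ribosomal proteins (MRPs), and were taken as the protein-coding genes of the GENCODE annotation whose symbol begins with MRPL or MRPS followed by a number. There were 78 such genes among 20163 protein-coding genes, 49 with an MRPL symbol (large subunit) and 29 with an MRPS symbol (small subunit). Counts by subunit below follow the symbol alone. They were examined in a ChIP-seq map of YTHDC1 in A549 cells, an established line derived from a human lung adenocarcinoma, made from crosslinked, sonicated chromatin of cells with no knockdown or drug treatment named in the labels. The 3 replicates formed a single group and were pooled by the authors before peaks were called, so each of the 6368 peaks carries 1 position and 1 value, and there is no spread between replicates. Neither an input nor an IgG or knockdown library entered the analysis, the read depth is unknown, and the labels do not say whether the replicates were separate cultures. All shares below therefore stand beside the same share over all protein-coding genes, without a test, and no expression values were used, so that background holds genes that are silent in these cells as well as active ones.

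Mitochondrial ribosomes translate the few proteins encoded by mitochondrial DNA, all of them membrane subunits of the respiratory chain and the ATP synthase. Their RNAs come from the mitochondrial genome, whereas every protein of both subunits is encoded in the nucleus, made in the cytoplasm and imported. The symbols follow the subunit with a few exceptions, as the products of MRPS30 and MRPS18A sit in the large subunit and that of MRPS36 belongs to a dehydrogenase complex. These genes were still counted under the small subunit, and none of them had a start peak. YTHDC1 is the nuclear reader of N6-methyladenosine (m6A) in RNA, acts in splicing and export, and is found on chromatin, where ChIP-seq can map the DNA that lies near it.

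A gene was counted as start-bound when at least 1 base of a peak lay within 200 bases of any of its annotated transcript starts. Of the 78 MRP genes, 18 were start-bound (23.1%), against 3163 of 20163 protein-coding genes (15.7%), and each of the 18 had a single peak at its starts. By symbol, the large subunit held 13 of them among 49 genes (26.5%) and the small subunit 5 among 29 (17.2%). The large-subunit genes were MRPL3, MRPL4, MRPL9, MRPL19, MRPL21, MRPL28, MRPL32, MRPL40, MRPL42, MRPL44, MRPL51, MRPL53 and MRPL58. The small-subunit genes were MRPS2, MRPS12, MRPS15, MRPS23 and MRPS26. With counts this small the difference between the subunits rests on few genes and was not tested.

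The start windows were sought at every annotated start, and a gene with more starts has more windows. Among all protein-coding genes the start-bound share rose from 6.33% with 1 start through 12.2% with 2 to 5 starts to 21.4% with 6 or more. Among MRP genes the shares were 22.2% (2 of 9), 21.1% (8 of 38) and 25.8% (8 of 31) in the same classes, so MRP genes with few starts were bound about as often as those with many. The class with 1 start rests on 2 bound genes, and differences between classes were not tested. When only the canonical start of each gene was used, all 18 MRP genes remained bound, while the share of all protein-coding genes was 11.9%, and 74.8% of the genes bound at any start were kept. In a window of 100 bases the same 18 were again kept, against 13.5% of all protein-coding genes. Requiring a q-value under 0.05 left 11 MRP genes (14.1%), against 8.96% of all protein-coding genes.

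**Figure D1:**
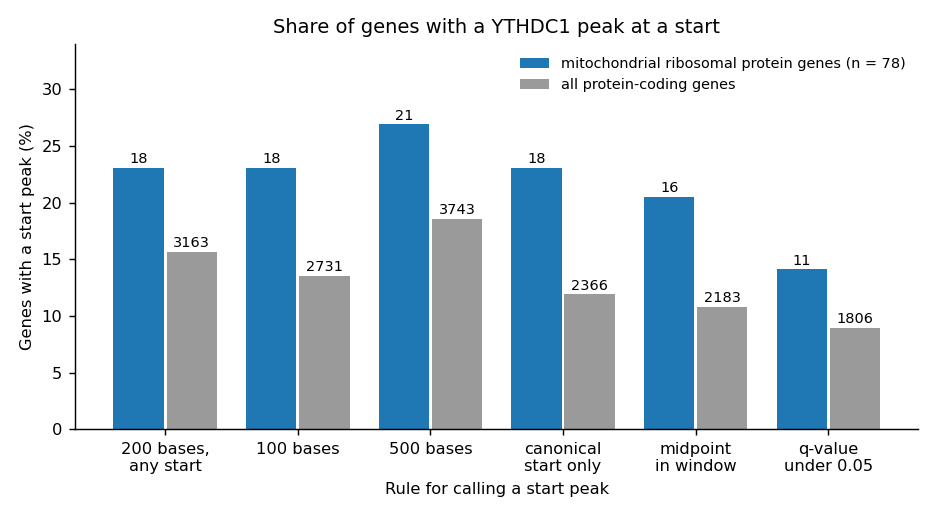
Share of genes with a start peak, in percent on the vertical axis, under each rule for counting a gene as bound, for MRP genes and for all protein-coding genes. Under the rule used in the text the shares are 23.1% and 15.7%, and the MRP share falls to 14.1% when only peaks with a q-value under 0.05 are taken.

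**Figure D2:**
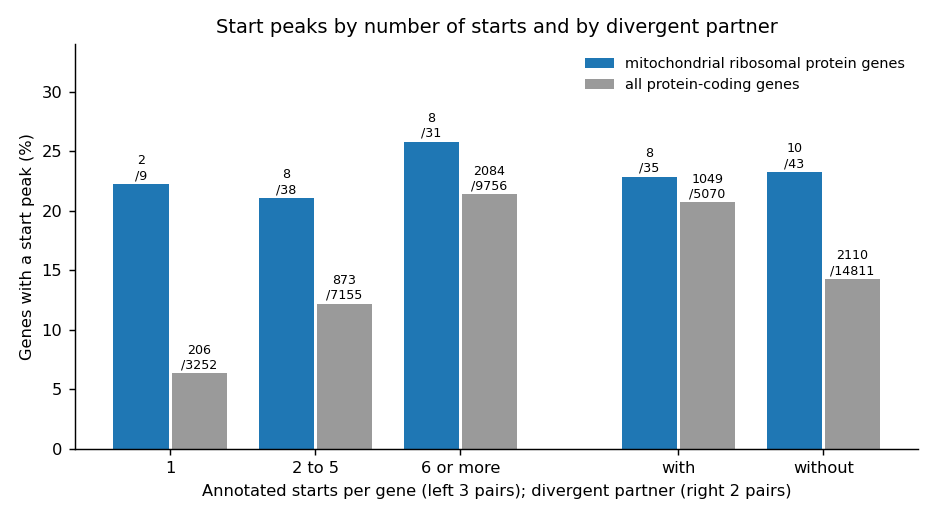
Share of genes with a start peak, in percent on the vertical axis, for MRP genes and all protein-coding genes split by the number of annotated starts (left 3 pairs of bars) and by divergent partner (right 2 pairs), with the number bound and the number of genes above each bar. With the number of starts the share of all protein-coding genes climbs from 6.33% to 21.4%, while that of the MRP genes lies between 21.1% and 25.8%.

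One gene stood far above the other members in peak strength. MRPL53, which encodes a large-subunit protein, carried a peak at chr2:74699116-74700092, 977 bases wide, with a −log10 q of 12.2. By this value it ranked 33 among all 6368 peaks and 7 among the 2998 peaks at protein-coding starts. The peak reached from 285 bases upstream of the canonical start to 691 bases downstream and lay over 699 of the gene's 706 bases (99.0%), so that the peak spanned practically the whole transcription unit. The midpoint fell in intron 1 of 2. The next values among members were 3.38 for MRPL51 and 3.05 for MRPL3, and the other 15 lay between 0.637 and 1.71.

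MRPL51, also of the large subunit, had a peak at chr12:6602539-6602969 (431 bases) that ranked 391 of all peaks. It did not reach the canonical start, as it extended from −541 to −111 bases relative to it, over another annotated MRPL51 start and within 200 bases of a start of NCAPD2, a condensin I subunit gene on the opposite strand. MRPL3 encodes the counterpart of the bacterial L3 protein, which lies close to the peptidyl transferase centre. Its peak, at chr3:131221733-131221979, was 247 bases wide, ranked 511 of all peaks, and ran from 164 bases upstream of the start to 82 bases downstream, where an lncRNA on the opposite strand also begins.

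The sequences under these strongest peaks are given here because they show how different the 3 sites are in arrangement. They were read from GRCh37 and are written 5′ to 3′ on the gene's strand. Capitals mark matches, in either orientation, to CCGGAAG (the ETS-type motif bound by GABPA), to AAGATGGC (YY1) or to CACGTG (E-box). For MRPL53 (chr2:74699758-74700057, minus strand) and MRPL51 (chr12:6602379-6602678, minus strand) the 300 bases from 250 before the canonical start onward are shown, with the start at base 251. For MRPL3 (chr3:131221733-131221979, minus strand) the whole peak is shown, with the start at base 165.
MRPL53: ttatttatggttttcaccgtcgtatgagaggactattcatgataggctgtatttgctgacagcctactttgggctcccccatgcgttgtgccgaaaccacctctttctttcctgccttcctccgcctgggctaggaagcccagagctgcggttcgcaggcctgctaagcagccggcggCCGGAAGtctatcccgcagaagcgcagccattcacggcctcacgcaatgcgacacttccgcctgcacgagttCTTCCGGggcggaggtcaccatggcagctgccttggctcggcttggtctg
MRPL51: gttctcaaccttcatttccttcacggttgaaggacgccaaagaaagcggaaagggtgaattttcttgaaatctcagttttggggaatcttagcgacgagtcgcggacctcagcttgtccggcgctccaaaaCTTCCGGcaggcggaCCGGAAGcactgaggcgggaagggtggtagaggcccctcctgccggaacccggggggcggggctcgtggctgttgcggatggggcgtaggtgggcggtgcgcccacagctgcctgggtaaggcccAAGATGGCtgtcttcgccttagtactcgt
MRPL3: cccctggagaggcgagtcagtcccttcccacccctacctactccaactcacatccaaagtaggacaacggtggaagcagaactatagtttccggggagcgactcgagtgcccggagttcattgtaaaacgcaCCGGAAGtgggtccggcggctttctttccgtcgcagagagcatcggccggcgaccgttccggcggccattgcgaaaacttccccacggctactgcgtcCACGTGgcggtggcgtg
The MRPL53 window lies inside its peak over its whole length, and so holds both ETS-type matches, at bases 179 and 251, within the bound region. In MRPL51 the peak covers the first 140 bases of the window, which include the ETS-type match at base 132, while a second ETS-type match at base 147, the start and the YY1 match at base 272 lie outside it. In MRPL3 the ETS-type match at base 133 lies 32 bases upstream of the start.

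The remaining large-subunit genes had peaks of ordinary strength. MRPL28 (chr16:420469-420706) had a −log10 q of 1.597, MRPL40 (chr22:19419786-19420048) of 1.58 and MRPL19 (chr2:75873970-75874348) of 1.52. MRPL21 followed with 1.46, MRPL9 (chr1:151735586-151735887) with 1.42 and MRPL44 (chr2:224821946-224822361), whose product has an RNase III-like fold, with 1.40. All of these passed a q-value of 0.05, which corresponds to 1.301. MRPL58, the gene of a peptidyl-tRNA hydrolase built into the ribosome that also releases stalled chains, had one of the wider peaks, at chr17:73008421-73009050, with 630 bases and a −log10 q of 1.41. The values of MRPL42 (chr12:93861415-93861671, 1.24), MRPL32 (chr7:42972048-42972279, 0.984) and MRPL4 (chr19:10362850-10363153, 0.637) did not reach the 0.05 threshold. MRPL4 ranked 6344 of the 6368 peaks and thus lay near the weakest value in the set, 0.610.

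Among the small-subunit genes MRPS12 had the highest value. Its product, the counterpart of bacterial S12, lies at the decoding centre, and its start peak (chr19:39421639-39421994, 356 bases) had a −log10 q of 1.71. Of the 5 it alone passed a q-value of 0.05. MRPS15 (chr1:36929670-36929937) had 1.23, MRPS23 (chr17:55927395-55927687) 1.13, MRPS26 (chr20:3026735-3027217) 1.10 and MRPS2 (chr9:138392312-138392860), the counterpart of bacterial S2, 0.887. The medians were 1.46 over the 13 large-subunit peaks and 1.13 over the 5 small-subunit peaks, and the ranges overlapped.

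Over all 18 MRP start peaks the median −log10 q was 1.42 (quartiles 1.15 and 1.59), against 1.39 (1.02 and 1.95) over the 2998 start peaks of all protein-coding genes. A q-value under 0.05 was reached by 11 of 18 (61.1%) and by 1668 of 2998 (55.6%). MRPL53, MRPL51 and MRPL3 lay above the upper quartile of all start peaks, and the other members lay below it. The value comes from peak calling and is not a direct measure of the strength of binding. The peaks were narrower at the median, with 303 bases (258.5 and 427.25) against 373 (278 and 516). The range ran from 232 bases in MRPL32 to 977 in MRPL53.

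**Figure D3:**
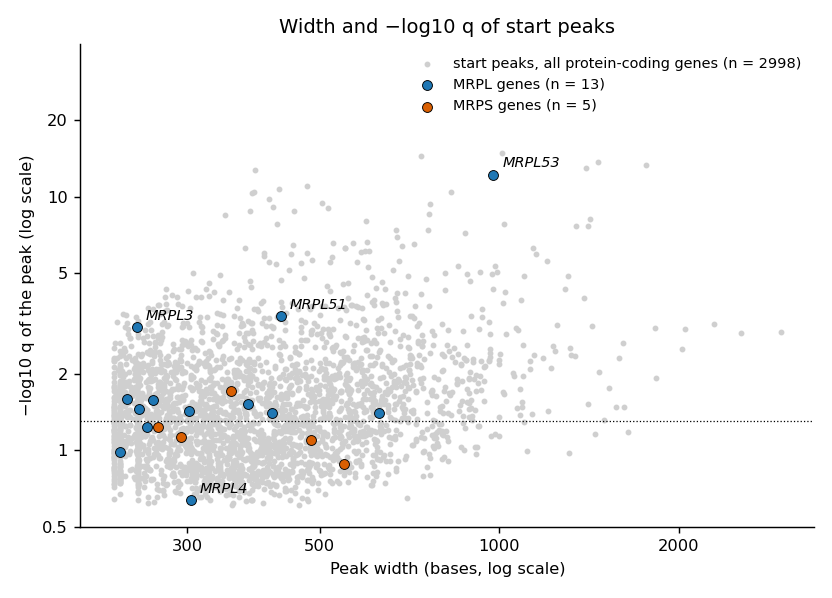
Width in bases (horizontal, log scale) and −log10 q (vertical, log scale) of the 2998 start peaks of all protein-coding genes (grey) and of the 18 MRP start peaks, blue for MRPL and orange for MRPS genes, with a dotted line at 1.301, a q-value of 0.05. MRPL53 stands at 977 bases and 12.2, MRPL51 and MRPL3 lie above 3, and the other members lie among the bulk of the peaks.

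The position of the peaks was described from the canonical start, with positive values downstream. The midpoint lay downstream in 11 of 18 MRP genes (61.1%) and upstream in 7, and the same share over all bound protein-coding genes was 61.6% (2044 of 3318 pairs of a gene and a peak). The median midpoint was 84.5 bases downstream of the canonical start for MRP genes and 124 for all protein-coding genes. Measured from the nearest annotated start the order was the other way, with medians of 56 bases downstream for MRP genes and 16 for all protein-coding genes. These medians are of signed positions, so upstream and downstream midpoints offset each other. The quartiles from the canonical start were −38.25 and 224.75 for MRP genes, against −165.75 and 313. From the nearest start they were −28.5 and 139.75, against −93 and 162. On both measures the MRP quartiles lay inside those of all protein-coding genes, which was not tested. The midpoints ranged from −326 bases in MRPL51 to 278 bases in MRPS26. In 9 of the 18 the peak covered the canonical start itself, a count not made over all protein-coding genes.

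The midpoint of 8 peaks fell in an intron, in each case intron 1. These were the peaks of MRPL4, MRPL9, MRPL19, MRPL32, MRPL42, MRPL53, MRPS12 and MRPS26. In 7 genes (MRPL3, MRPL28, MRPL40, MRPL44, MRPL51, MRPL58 and MRPS23) it lay upstream of the canonical transcript. It lay in the first coding exon in MRPS2 (exon 1 of 4) and MRPS15 (exon 1 of 8), and in the 5′ UTR, in exon 1 of 7, in MRPL21. The same places were not counted over all bound protein-coding genes, so they cannot be read as particular to MRP genes.

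**Figure D4:**
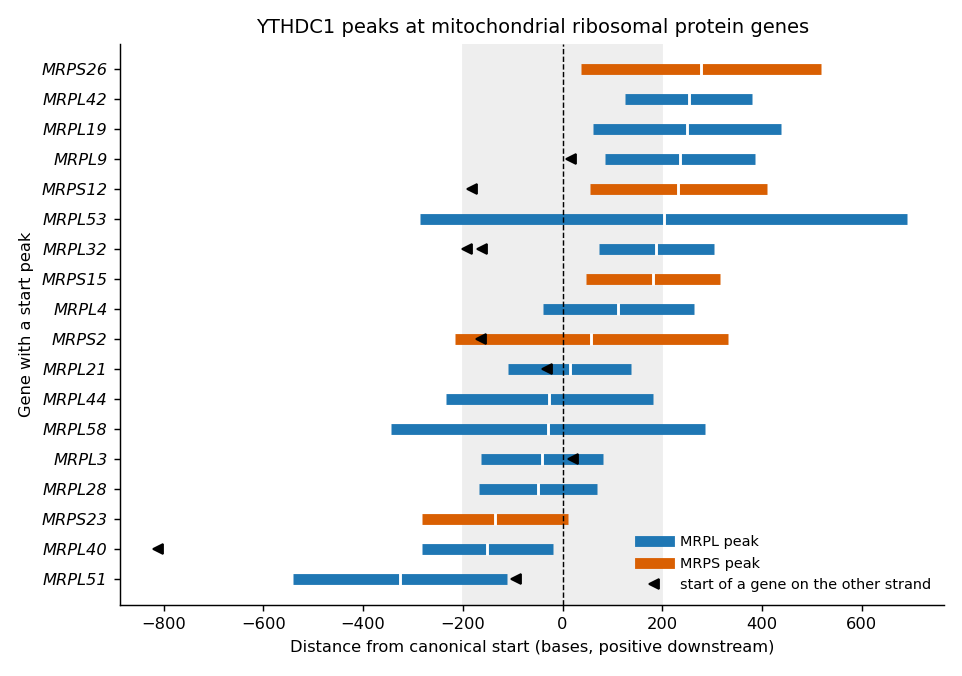
Span of each of the 18 MRP start peaks relative to the canonical start (0), in bases along the direction of transcription, blue for MRPL and orange for MRPS genes, with the midpoint as a white tick, starts of genes on the other strand as triangles and the 200 bases on both sides of the start in grey. Of the spans, 9 cross 0, and the midpoints range from −326 in MRPL51 to 278 in MRPS26.

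The peak of MRPL28 is shown as an example in which a narrow peak lies across the start. It is the whole peak on the minus strand of GRCh37, chr16:420469-420706, with the start at base 169. Capitals again mark matches to the motifs searched.
MRPL28: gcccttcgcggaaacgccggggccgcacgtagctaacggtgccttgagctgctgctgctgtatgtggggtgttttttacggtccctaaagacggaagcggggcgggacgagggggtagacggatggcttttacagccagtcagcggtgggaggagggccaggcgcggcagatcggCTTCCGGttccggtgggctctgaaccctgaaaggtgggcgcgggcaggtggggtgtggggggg
The MRPL28 peak holds an ETS-type match at base 176, 7 bases downstream of the start.

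Many MRP genes share their promoter with a gene on the opposite strand. A divergent partner, defined as a gene on the other strand with an annotated start between 1000 bases upstream and 200 bases downstream of the canonical start, was found for 35 of 78 MRP genes (44.9%), against 25.5% of all protein-coding genes. A protein-coding partner was found for 29 (37.2%), against 12.9%. The partner was only an lncRNA in 6. Divergent arrangement is thus more common among MRP genes than in the annotation at large.

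The share of start-bound genes hardly moved with the presence of a partner. Among MRP genes with a partner 8 of 35 were bound (22.9%), against 20.7% of all protein-coding genes with a partner, and among those without a partner 10 of 43 (23.3%), against 14.2%. With protein-coding partners alone the shares were 7 of 29 (24.1%), against 19.4%, and 11 of 49 (22.4%), against 15.4%. The difference from the background was larger in genes without a partner, but neither difference was tested.

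In 5 of the 8 bound pairs a single peak counted for both genes. These were MRPL9 with OAZ3, an ornithine decarboxylase antizyme gene, MRPL3 with its lncRNA, MRPS2 with PIERCE1, a gene of ciliary microtubules, MRPL21 with IGHMBP2, a helicase gene, and MRPL51 with NCAPD2. The canonical starts lay 59 bases apart for MRPL21 and IGHMBP2. They lay 813 bases apart for MRPS2 and PIERCE1, 840 for MRPL51 and NCAPD2 and 3159 for MRPL9 and OAZ3. PIERCE1, NCAPD2, OAZ3 and the lncRNA were therefore counted at an annotated start other than the canonical one. The nearest annotated IGHMBP2 start lies 31 bases from the canonical MRPL21 start, and the nearest PIERCE1 start 164 bases from the canonical MRPS2 start. With such spacing a peak of this width cannot be assigned to 1 gene of the pair. In 2 pairs only the MRP gene had a peak. MRPL32 faces PSMA2, which encodes a proteasome subunit, at 191 bases from the canonical MRPL32 start, and its peak began 73 bases downstream of the MRPL32 start. MRPS12 faces SARS2, the gene of mitochondrial seryl-tRNA synthetase, at 181 bases from the canonical MRPS12 start, and its peak began 55 bases downstream of the canonical MRPS12 start, on the side away from SARS2.

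MRPL40 was the 1 pair with separate peaks. Its canonical start lies 812 bases from that of HIRA, a histone chaperone gene, and the MRPL40 peak ended 20 bases before the MRPL40 start. A second peak, at chr22:19419339-19419564 with a −log10 q of 1.21, lay at HIRA. Of the 27 unbound MRP genes with a partner, none had a partner with a start peak. The same count over all protein-coding genes was not made. Where the starts lie close together, a peak near either often counts for both genes, so this count partly follows from the spacing. The unbound pairs include MRPL46 and MRPS11, 2 members that face each other with canonical starts 320 bases apart. They also include MRPL49 with FAU, the gene of a cytoplasmic ribosomal protein, MRPL43 with TWNK, the mitochondrial DNA helicase gene, and MRPL47 with NDUFB5, a complex I subunit gene.

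The remaining 60 MRP genes had no peak at a start, 36 with an MRPL symbol and 24 with an MRPS symbol. The nearest peak lay at a median distance of 81073 bases, and for 28 of the 60 it lay beyond 100000 bases. Only 3 had a peak within 1000 bases. Those nearest to the 200-base limit were MRPL41, whose peak began 203 bases from the start, MRPL38 at 204 bases (chr17:73901378-73901609, −log10 q 1.06) and MRPL12 at 373 bases (chr17:79669447-79670024, −log10 q 2.41). On the inside of the limit the farthest peaks were those of MRPL42, at 99 bases, and MRPL32, at 73 bases. A window of 500 bases therefore adds these 3 genes and gives 21 (26.9%), against 18.6% of all protein-coding genes. A window of 1000 bases adds no further member, against 20.0% of all protein-coding genes. MRPL12, the counterpart of bacterial L7/L12, thus had a stronger value near its start than most of the bound members, and that peak also overlapped HGS and an lncRNA.

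A peak inside the gene but outside all start windows was found in 3 of 78 MRP genes (3.85%), against 8.66% of all protein-coding genes. MRP genes are short, with a median length of 11940.5 bases against 27219 bases for all protein-coding genes, and the share of body-bound genes was not corrected for length. MRPS12 was bound both at the start and in the body. The midpoint of the second peak (chr19:39423099-39423776, 678 bases, −log10 q 1.29) fell in the 3′ UTR, in exon 3 of 3. A protein-coding gene on the opposite strand overlaps this peak. In MRPL41 the peak (chr9:140446534-140446842, −log10 q 0.924) had its midpoint in the coding part of exon 2 of 2 and covered 45.6% of this gene. In MRPL33 the peak (chr2:28022015-28022469, −log10 q 1.05) had its midpoint 27656 bases from the canonical start, beyond the canonical transcript, where RBKS overlaps on the other strand. None of the 3 body peaks had a q-value under 0.05.

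Pseudogenes copied from MRP mRNAs are numerous. None of 79 annotated MRP pseudogenes overlapped a peak. With 3 taken as the upper limit for a count of 0, the share could be up to 3.80%. Over all annotated pseudogenes the share was 0.487% (75 of 15399), so the count of 0 does not set the MRP pseudogenes apart.

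The promoters of MRP genes were searched for 6 short motifs, on both strands, in the 300 bases from 250 before to 50 after the canonical start. The ETS-type motif CCGGAAG was found in 32 of 78 (41.0%), against 14.1% of all protein-coding promoters, and the YY1 motif AAGATGGC in 22 of 78 (28.2%), against 4.05%. These were the 2 motifs with the largest differences from all promoters in percentage points. Either motif was present in 46 of 78 (59.0%), against 17.3%, and both in 8 (10.3%), against 0.895%. Matches to different motifs were counted separately even where they shared bases. The matches lay close to the start, with a median position of 21 bases upstream for the ETS-type motif and 17 bases downstream for YY1 in MRP genes, against 42 upstream and 13 downstream in all promoters.

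The other motifs were less frequent. GCATGCGC, bound by NRF1, a regulator of nuclear genes for mitochondrial proteins, was found in 7 of 78 (8.97%), against 4.27% of all promoters. ACTACAA (ZNF143) was also found in 7, against 2.998%, and CACGTG (E-box, the same on both strands) in 7, against 8.76%. TCTCGCGA, a motif of the type bound by ZBTB33, was found in 2 (2.56%), against 1.74%.

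The motifs were set against binding within the MRP genes. The ETS-type motif was present in 9 of 18 start-bound (50.0%) and 23 of 60 unbound promoters (38.3%), and over all protein-coding genes the bound promoters held it in 22.95%. The YY1 motif was present in 4 of 18 bound (22.2%) and 18 of 60 unbound promoters (30.0%). Over all protein-coding genes the bound promoters held it in 4.72%, against 4.05% of all promoters. Thus the ETS-type motif was somewhat more frequent, and the YY1 motif somewhat less frequent, in the bound members, and with 18 genes neither difference amounts to more than a few promoters. Of the 9 bound members with an ETS-type match, 6 had it inside the peak (MRPL3, MRPL28, MRPL51, MRPL53, MRPL58 and MRPS23). None of the 4 bound members with a YY1 match (MRPL32, MRPL42, MRPL51 and MRPS12) had it inside the peak. These counts depend on where each peak lay, and none of these 4 peaks covered the canonical start. The same shares over all bound protein-coding genes were not computed, so the counts cannot be read as a difference between the motifs. In windows of 300 bases on the peak midpoints the ETS-type motif was found in 5 of 18 MRP start peaks (27.8%), against 14.8% of the 2998 start peaks of all protein-coding genes and 8.90% of all 6368 peaks. The YY1 motif was found in none of the 18, against 2.50% of the 2998 and 1.79% of the 6368.

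**Figure D5:**
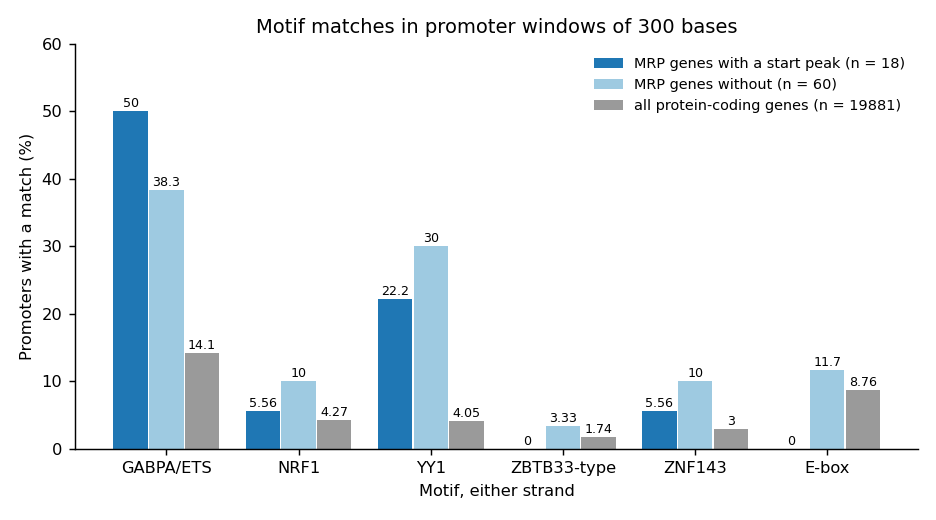
Share of promoters, in percent, that hold each of the 6 motifs in the 300 bases around the canonical start, for the 18 start-bound MRP genes, the 60 other MRP genes and all protein-coding genes. The ETS-type motif reaches 50.0%, 38.3% and 14.1%, and the YY1 motif 22.2%, 30.0% and 4.05%.

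The 3 promoters below are shown to compare a bound gene with both motifs (MRPS12), a bound gene with YY1 alone (MRPL42) and an unbound gene with both (MRPL47, which encodes a large-subunit protein). Each is the 300-base window of GRCh37 with the canonical start at base 251, and capitals mark motif matches. MRPS12 lies at chr19:39421334-39421633 and MRPL42 at chr12:93861040-93861339, both on the plus strand, and MRPL47 at chr3:179322377-179322676 on the minus strand.
MRPS12: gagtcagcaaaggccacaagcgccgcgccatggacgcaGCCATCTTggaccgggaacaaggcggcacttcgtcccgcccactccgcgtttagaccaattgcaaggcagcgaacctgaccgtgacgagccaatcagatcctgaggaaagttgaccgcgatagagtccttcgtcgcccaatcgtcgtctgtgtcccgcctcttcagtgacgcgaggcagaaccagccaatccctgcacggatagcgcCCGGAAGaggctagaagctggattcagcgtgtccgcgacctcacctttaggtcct
MRPL42: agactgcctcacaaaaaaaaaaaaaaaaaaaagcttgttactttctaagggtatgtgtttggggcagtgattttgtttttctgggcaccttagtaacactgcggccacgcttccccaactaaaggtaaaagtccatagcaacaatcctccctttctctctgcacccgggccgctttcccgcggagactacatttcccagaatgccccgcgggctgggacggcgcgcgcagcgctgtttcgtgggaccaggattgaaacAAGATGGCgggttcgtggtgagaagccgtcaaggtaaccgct
MRPL47: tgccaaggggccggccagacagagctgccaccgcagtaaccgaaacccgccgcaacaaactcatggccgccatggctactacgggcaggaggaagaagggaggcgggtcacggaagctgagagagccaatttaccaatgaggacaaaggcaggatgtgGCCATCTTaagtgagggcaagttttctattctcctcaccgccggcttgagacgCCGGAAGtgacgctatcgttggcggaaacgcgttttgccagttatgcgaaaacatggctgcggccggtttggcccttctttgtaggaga
In MRPS12 the YY1 match is at base 39, on the SARS2 side, and the ETS-type match at base 246 sits next to the start. In MRPL42 the single YY1 match, at base 259, lies 8 bases downstream of the start, and the peak begins 125 bases downstream of it. MRPL47 has a YY1 match at base 159 and an ETS-type match at base 212, and no peak at any start. The same pair of motifs was thus found at bound and unbound members. The members holding both motifs were MRPL51 and MRPS12 among the bound genes and MRPL20, MRPL38, MRPL47, MRPL52, MRPS10 and MRPS18A among the unbound.

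Base composition was alike in bound and unbound members. The GC content of the 300-base promoter was 63.1% ± 7.81 (SD over 18 genes) in bound and 60.9% ± 8.63 (60 genes) in unbound MRP genes, against 62.3% ± 11.8 over all protein-coding genes and 66.0% over the bound ones. The ratio of observed to expected CpG was 0.877 in both sets of MRP genes, against 0.681 over all and 0.836 over bound protein-coding genes. MRP promoters are thus CpG-rich whether or not a peak was found. The bound members had the shorter median length, 8373.5 bases (quartiles 3610.75 and 14597) against 12955.5 (5310.5 and 32907.5) in the unbound. The lengths overlapped widely, and the difference was not tested. Bound protein-coding genes had a median of 35284 bases, against 27219 over bound and unbound genes together, which is not the same contrast.

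Other genes of mitochondrial translation and genome upkeep were counted from lists of known members. In 5 lists together 20 of 68 genes were start-bound (29.4%), against the 15.7% of all protein-coding genes. Of 12 mitochondrial translation factors 5 were bound (41.7%), including TACO1, the translational activator of COX1 (−log10 q 3.23), the initiation factor gene MTIF2 (1.73) and the elongation factor genes TSFM (1.31) and TUFM (0.984). Of 24 genes of ribosome assembly and rRNA modification 8 were bound (33.3%), with the highest values in the RNA helicase gene DHX30 (2.20), MALSU1 (1.49), NGRN (1.43) and MTG1 (1.41).

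Mitochondrial aminoacyl-tRNA synthetases were bound in 3 of 17 genes (17.6%), namely TARS2 (2.10), YARS2 (1.65) and EARS2 (1.27). Of 10 genes of mitochondrial transcription and genome upkeep 3 were bound (30.0%), namely the transcription elongation factor gene TEFM (2.17), TFAM (1.498), which packages mitochondrial DNA, and the DNA polymerase gene POLG (1.19). Of 5 mitoribosome proteins with other symbols only AURKAIP1 was bound (1.07). The cytoplasmic ribosomal protein genes, the closest group in function, were bound in 27 of 86 (31.4%), led by RPL12 (4.31), RPLP0 (3.09), RPL13A (2.66) and RPLP1 (2.27). These genes were taken by symbol, with retrogene-like genes left in, and the 27 include RPL39L. Their 31 start peaks had a median width of 386 bases and a median −log10 q of 1.25, against 303 bases and 1.42 in the MRP genes. Their midpoints lay at a median of 252 bases downstream of the canonical start, against 84.5 bases in the MRP genes, but at 24 bases downstream of the nearest annotated start, against 56 bases in the MRP genes.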

How the data were processed

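YTHDC1 ChIP-seq of A549 cells, 3 replicates of 1 group, was analysed as 1 peak set. The authors pooled the aligned reads on hg19 and called broad peaks with MACS2, with no control library named. The study's methods name Bowtie2 and the submitters' processing notes BWA, and the peak names point to a merging step not described in the sources used here. The deposited value of each peak is read as −log10 q, an inference from its lowest value, 0.610, just above 0.602 for the broad cutoff of 0.25. Depth per replicate is unknown.

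Starts and exons came from GENCODE release 44 on GRCh37, the same assembly, with coordinates counted from 1. A peak was counted at a start within 200 bases (1 base of overlap) and in the body elsewhere in the gene. Of the 20163 genes, 19881 have a canonical start. Promoters ran from 250 bases before to 50 after it. Python 3.11.15, numpy 2.4.6 and pandas 2.3.3 were used, and the overlap code was tested on simulated data. Alternatives changed the window, the starts, the peak threshold and the partner definition. Named were all members with a peak at a start, in the body or within 1000 bases, and up to 4 bound genes of each list by highest −log10 q. Partners, unbound motif holders and the unbound example promoter were named beyond that rule, after their values were seen. Members, lists and motifs were chosen with earlier results of these data known. The sequence of 1 member's peak is not reported here.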

Additional observations from a re-analysis of the deposited data

How the results depend on the processing

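Because the replicates were pooled before peak calling, no replicate could be left out, no paired analysis was possible because there is 1 group, and all values describe 1 peak set. The 18 start-bound MRP genes fell to 11 when only peaks with a q-value under 0.05 were used and also to 11 with the stronger 3184 of all peaks, while 57.1% and 55.0% of all bound protein-coding genes were kept. The 3 genes with a body peak fell to 0 at a q-value under 0.05, against 889 genes (4.41%) of all protein-coding genes. The median midpoint from the nearest annotated start, 56 bases downstream, turned to −4 bases over the 11 peaks with a q-value under 0.05. The start-bound count was 18 (23.1%) with 100-base windows, canonical starts or basic transcripts. The shares of all protein-coding genes were then 13.5%, 11.9% and 13.8%. With the peak midpoint in the window the count was 16 (20.5%), against 10.8% of all protein-coding genes. Windows of 500 or 1000 bases gave 21 (26.9%), against 18.6% and 20.0%. Partners within 500 bases were found for 31 members in place of 35, a count not made over all protein-coding genes. The median width was 356 bases and the median −log10 q 1.58 over the 11 peaks.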
